A study of Homo sapiens with 8 samples.

Results

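The genes described here are 38 genes of interferon signalling and interferon response, chosen by name with earlier results of these data known. All 38 were found among the 57992 genes of the deposited count tables. They were measured by RNAseq in RKO cells, an established human colon carcinoma line that was maintained in DMEM with fetal calf serum. One group of 4 samples received control siRNA and the other group of 4 samples received A20 siRNA, an siRNA against TNFAIP3, the gene of the ubiquitin-editing protein A20. Both groups were stimulated with recombinant human wnt3a at 50 ng/mL for 24 hours, so no sample shows these genes without an siRNA or without wnt3a, and the effect of either on their level was not measured. The questions asked of the 38 genes were at what level RKO cells held them in this state and whether A20 siRNA altered that level.

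Type I interferons bind a receptor made of IFNAR1 and IFNAR2, and type II interferon binds IFNGR1 and IFNGR2. Janus kinases at the receptors phosphorylate STAT proteins, and a complex that holds STAT2 and IRF9 then binds a promoter element called ISRE, while STAT dimers bind the GAS element. The genes so induced encode antiviral effectors, sensors of foreign RNA, regulators of ubiquitin-like modification and the machinery that loads peptides on MHC class I, and many of them are held at a low tonic level in cells that have met no virus.

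The ISRE is the element through which type I interferon induces many of these genes, so stretches around it are shown for genes whose levels or differences the results turn on. It was searched as GAAANNGAAA on both strands, with overlapping matches counted, in the 250 bases before each RefSeq gene start (GRCh38.p14). Of the 38 genes, 30 had such a window and 19 of these (63.3%) held at least 1 match, against 3.71% of all 27305 genes with a window and 3.02% of all 35116 windows. The GAS core TTCNNNGAA, which reads the same on both strands, was found for 9 of the 30 genes (30%), against 8.09% of all genes with a window and 6.57% of all windows. The kappaB site GGGANTTTCC, a binding sequence of the NFkB factors that A20 restrains, was found for IFNGR2, OAS3, IFIH1, TAP1 and B2M, 5 of the 30 genes (16.7%), against 0.645% of all genes with a window and 0.527% of all windows. IFNAR2, IRF3, IRF7, IFIT2, IFITM2, OAS2, OASL and USP18 had no window in the table used. A match is a run of letters and not a measured binding site. Of the short stretches below, only that of IFIT1 overlaps no exon of GENCODE 44. Both stretches of OAS3, the first of IFIT5 and that of B2M lie wholly in annotated exons, and the rest lie partly in them. Each stretch is written 5′ to 3′ on the strand of its gene with the ISRE matches in capitals, where TTTC in place of GAAA marks a match read from the other strand.
OAS3, chr12:112938321-112938350: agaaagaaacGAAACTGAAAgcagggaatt
OAS3, chr12:112938444-112938473: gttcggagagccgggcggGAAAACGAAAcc
IFIT1, chr10:89392504-89392533: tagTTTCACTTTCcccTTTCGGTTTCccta
IFIT5, chr10:89414513-89414542: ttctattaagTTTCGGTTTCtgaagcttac
IFIT5, chr10:89414538-89414567: cttacgtttagTTTCGATTTCttaagtttc
IFITM1, chr11:313990-314019: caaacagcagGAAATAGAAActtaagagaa
ISG20, chr15:88638937-88638966: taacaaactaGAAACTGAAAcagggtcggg
B2M, chr15:44711366-44711395: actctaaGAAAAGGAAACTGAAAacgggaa
IFI44L, chr1:78620365-78620394: tcctagtgagGAAAAAGAAAgttagtggca
Longer stretches, the 150 bases just before the gene start, are given for IFITM3 (chr11:320861-321010, minus strand) and ISG15 (chr1:1013347-1013496, plus strand), 2 of the genes at the highest level, whose windows overlap no exon of GENCODE 44.
IFITM3: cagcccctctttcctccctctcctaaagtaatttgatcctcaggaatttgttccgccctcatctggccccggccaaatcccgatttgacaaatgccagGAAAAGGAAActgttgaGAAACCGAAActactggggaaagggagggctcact
ISG15: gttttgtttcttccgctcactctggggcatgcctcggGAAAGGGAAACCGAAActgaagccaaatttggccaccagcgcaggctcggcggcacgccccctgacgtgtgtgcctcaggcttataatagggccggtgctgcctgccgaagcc
Genes at a high level and genes at or near 0 counts both held the element: it stood before IFIT5 and IFITM3, and also before IFITM1 and IFI44L.

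Levels are given in CPM, counts set to one library size by TMM scaling. Total counts on genes ranged from 21226451 to 34194273 per sample, and 3 counts corresponded to between 0.0877 and 0.141 CPM before that scaling. Neither the labels nor the methods say whether the samples of a group came from separate cultures, so p-values measure only the spread between these samples. Control siRNA replicate 1 and A20 siRNA replicate 2 stood apart from their groups in how expression deviated with gene length, with a Spearman's rho across genes of 0.08 against -0.20 to -0.11 in the other control samples, and of -0.08 against 0.07 to 0.18 in the other A20 siRNA samples. TNFAIP3 was at 4.92, 5.83, 5.59 and 5.54 CPM with control siRNA and at 3.47, 3.01, 3.40 and 3.43 CPM with A20 siRNA, without overlap. It fell by 0.71 on the log2 scale (SE 0.10, adjusted p = 0.00258 by edgeR's quasi-likelihood test, adjusted by Benjamini-Hochberg over 13412 genes), and the two-sided exact permutation test gave p = 0.0286, the smallest that 4 samples against 4 allow. Of 9 epithelial and intestinal markers, EPCAM, KRT8, KRT18 and CDX2 were expressed, KRT19, KRT20 and CDH1 were at 0 in all samples, and VIL1 and LGALS4 reached at most 2 counts. Among leukocyte markers PTPRC, CD3E and MS4A1 were at 0, CD14 and ITGAM reached at most 2 counts, and CD68 had 18 to 35 counts on a transcript that shares 94.8% of its 75-base windows with other genes. Fibroblast and endothelial markers reached at most 4 counts.

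RKO cells held most of the 38 genes at a measurable level: 27 had at least 1 CPM in every control sample, 31 had enough counts to be tested, and 7 did not. The untested genes IFI44, IFI44L, IFITM1, OAS1, OAS2, OASL and TAP2 had at most 15 counts in any sample. IFI44L and TAP2 had none in any of the 8, which allows up to 0.0877 CPM in the deepest sample and 0.141 CPM in the shallowest, before TMM scaling. Levels of different genes were compared as CPM per kb of the canonical transcript in control samples. The 6 highest were IFITM2, IFITM3, B2M, HLA-C, ISG15 and IRF3, and the same 6 genes stood highest when the length of all annotated exons was used instead. The order of genes and the ratios between them depended on the length used, and the SD between samples does not cover that choice. IFITM2, an interferon-induced membrane protein that blocks the entry of viruses, was at 153.8 ± 4.44 CPM per kb (SD, n = 4), above 97.5% of 13316 tested genes in level per kb of annotated exon. In bulk RNA, fewer cells with a transcript and less of it per cell cannot be told apart.

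**Figure D1:**
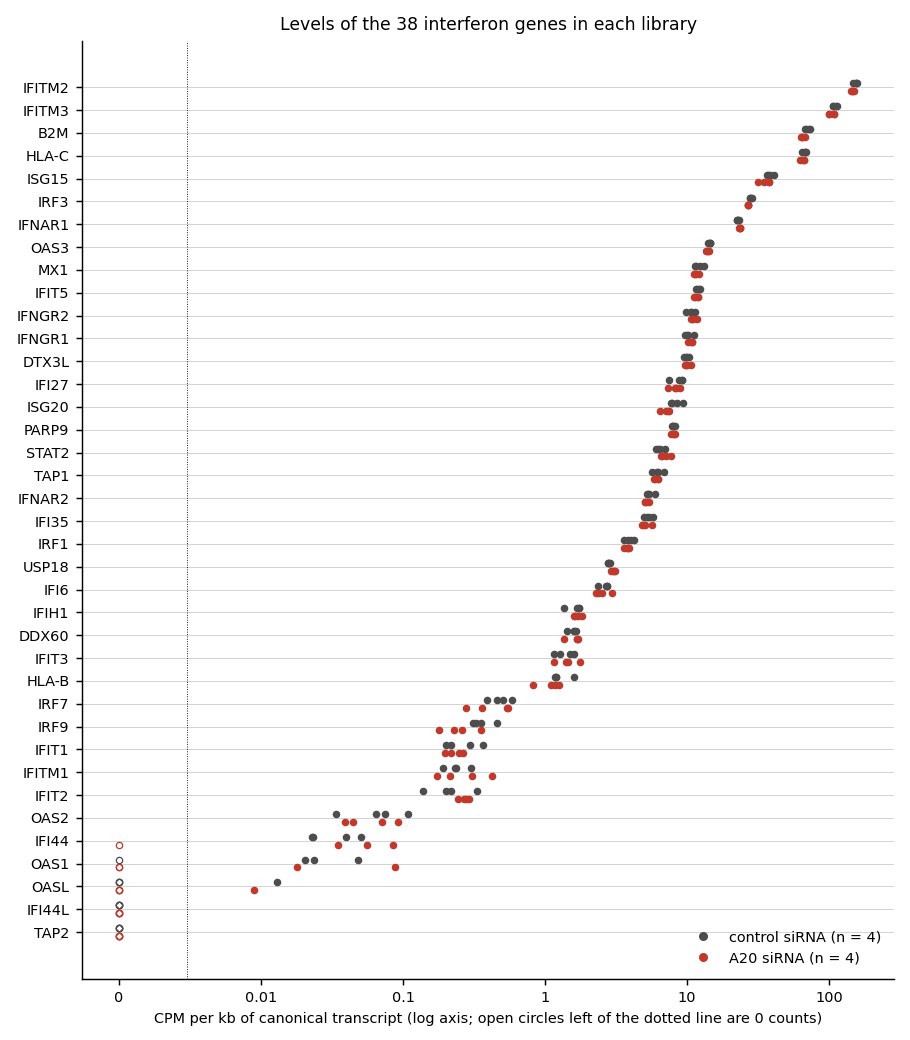
Level of each of the 38 interferon genes in each of the 8 libraries, in CPM per kb of canonical transcript on a log axis, ordered by the control mean, with open circles for 0 counts. Control siRNA and A20 siRNA points lie side by side for each gene, from IFITM2 near 150 down to IFI44L and TAP2 at 0 in all 8.

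The 4 receptor chains were all expressed. In control samples IFNAR1 was at 22.7 ± 0.331 CPM per kb, IFNGR2 at 10.6 ± 0.618, IFNGR1 at 10.3 ± 0.615 and IFNAR2 at 5.46 ± 0.320 (SD, n = 4). IFNGR2 and IFNGR1 did not differ beyond their spread, whereas IFNAR1 exceeded IFNAR2 by 4.34-fold per kb over all 8 samples (3.80 to 4.64 in single samples). The count of IFNAR2 is uncertain, because 89.4% of the 75-base windows of its transcript also occur in other annotated genes. The IFNAR2-IL10RB readthrough alone holds 46.4% of its windows.

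IFNAR1 was at 138.4, 140.9, 136.6 and 136.7 CPM with control siRNA and at 142.1, 142.4, 141.2 and 143.3 CPM with A20 siRNA. All 4 samples with A20 siRNA lay above all 4 controls, the nearest being 141.2 against 140.9 CPM, and the log2 fold change was 0.04 (SE 0.02, adjusted p = 0.352, edgeR). With a correction for exonic length over all 8 samples the log2 fold change of IFNAR1 was 0.0072 (adjusted p = 0.918, edgeR). IFNAR2, IFNGR1 and IFNGR2 overlapped between the groups, with log2 fold changes of -0.07, 0.05 and 0.05 and adjusted p from 0.50 to 0.677 (edgeR). For all 4 chains the 95% interval lay between -0.17 and 0.16.

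Of the transcription factors, IRF3, the factor that is activated by nucleic acid sensors and switches on interferon genes, was at the highest level, 28.1 ± 0.493 CPM per kb in control samples. STAT2 followed at 6.45 ± 0.401 and IRF1, which is itself induced through GAS elements, at 3.91 ± 0.268. IRF7, which amplifies the type I interferon response, was at 0.485 ± 0.0838 and IRF9 at 0.363 ± 0.0654 CPM per kb (SD, n = 4 throughout), and these did not differ beyond their spread. Per kb of all annotated exons IRF7 was at 0.357 and IRF9 at 0.0913 CPM per kb. IRF3 exceeded IRF7 by 59.5-fold per kb over the 8 samples (95% exact binomial interval 51.5 to 69.0, for counting error only). The count of IRF9 is uncertain, since 92.7% of its windows occur in another annotated gene that overlaps it, and 10.1% of the windows of IRF3 occur in BCL2L12.

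STAT2 was at 30.8, 27.5, 26.7 and 28.6 CPM with control siRNA and at 29.2, 34.0, 31.2 and 28.9 CPM with A20 siRNA. Control replicate 1 lay within the A20 siRNA range and A20 siRNA replicate 2 was the highest of all 8. Its log2 fold change was 0.12 (SE 0.05, unadjusted p = 0.0398, adjusted p = 0.284, edgeR). Without A20 siRNA replicate 2 it was 0.063 (unadjusted p = 0.224, adjusted p = 0.570, edgeR). Without control replicate 1 it was 0.159 (unadjusted p = 0.00695, adjusted p = 0.0738, edgeR). With both left out it was 0.107 (unadjusted p = 0.0343, adjusted p = 0.179, edgeR).

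IRF3 was at 44.5, 44.1, 45.0 and 45.9 CPM with control siRNA and at 42.6, 42.5, 42.9 and 42.7 CPM with A20 siRNA. The A20 siRNA samples lay close together and all below the controls, a log2 fold change of -0.07 (SE 0.03, unadjusted p = 0.0283, adjusted p = 0.243, edgeR). IRF1, IRF7 and IRF9 overlapped between the groups, with log2 fold changes of -0.04, -0.17 and -0.53. IRF9 had 9 to 19 counts per sample, its SE of 0.27 was the largest of the 31 tested genes, and its adjusted p was 0.348 (edgeR).

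Among the small interferon-induced proteins, ISG15, a ubiquitin-like modifier, was the highest at 38.1 ± 2.06 CPM per kb in control samples. IFI27 at 8.68 ± 0.807 and the exonuclease ISG20 at 8.34 ± 0.789 did not differ beyond their spread, and IFI35 at 5.35 ± 0.348 and IFI6 at 2.62 ± 0.165 CPM per kb stood lower (SD, n = 4). IFI44 had 0 to 4 counts per sample and IFI44L none. ISG20 was at 12.3, 13.5, 12.2 and 14.8 CPM with control siRNA and at 11.3, 11.7, 10.2 and 11.9 CPM with A20 siRNA. All A20 siRNA samples lay below all controls, the nearest being 11.9 against 12.2 CPM. Its log2 fold change was -0.22 with a 95% interval from -0.37 to -0.08 (SE 0.07, unadjusted p = 0.00415, adjusted p = 0.106, edgeR).

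ISG15 was at 23.5, 23.1, 24.2 and 26.1 CPM with control siRNA and at 23.9, 23.9, 22.1 and 20.2 CPM with A20 siRNA, so that A20 siRNA replicates 1 and 2 lay within the control range. Its log2 fold change was -0.09 (SE 0.05, adjusted p = 0.414, edgeR). IFI6, IFI27 and IFI35 gave log2 fold changes of -0.04, -0.07 and -0.05 with overlapping groups and adjusted p from 0.741 to 0.927 (edgeR).

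The genes of the IFIT, IFITM and OAS families, except OASL, sit in clusters of neighbours, and within each cluster 1 member or 2 were far above the others. The IFIT proteins bind viral RNA. Over the 8 samples IFIT5 exceeded IFIT1 by 48.0-fold per kb (95% exact binomial interval 42.1 to 55.0; 33.4 to 60.6 in single samples), IFIT2 by 48.1-fold (41.5 to 56.2) and IFIT3 by 8.36-fold (7.75 to 9.03). IFIT5 (chr10:89414568-89421605) and IFIT1 (chr10:89392546-89406487) are neighbours, and both held 2 ISRE matches in their windows. In control samples IFIT5 was at 12.0 ± 0.348 CPM per kb, next to MX1 in the order by canonical transcript, and IFIT3 at 1.38 ± 0.206 (SD, n = 4).

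The IFITM genes lie within chr11:303655-329475. IFITM3 was at 109.7 ± 3.82 CPM per kb in control samples and IFITM2 exceeded it by 1.40-fold (1.32 to 1.48 in single samples). Per kb of all annotated exons IFITM3 was at 23.6 and IFITM2 at 96.3 CPM per kb in control samples. IFITM1 had 3 to 6 counts per sample, and IFITM3 exceeded it by 423-fold per kb (95% exact binomial interval 305.3 to 604.0). Windows shared with other genes amounted to 12.5% for IFITM3, 11.3% for IFITM1 and 5.04% for IFITM2.

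The proteins OAS1, OAS2 and OAS3 make the second messenger that activates RNase L. OAS3 (chr12:112938051-112976460) was at 14.4 ± 0.280 CPM per kb in control samples. Its neighbours OAS1 and OAS2 summed to 9 and 64 counts over all 8 samples, and OAS3 exceeded them by 546-fold (95% exact binomial interval 287.6 to 1194) and 217.6-fold (170.3 to 282.6) per kb. OASL summed to 2 counts, 1 in each group.

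None of the family members tested passed the threshold. IFITM2 was at 148.7, 156.3, 154.4 and 159.3 CPM with control siRNA and at 144.0, 151.1, 148.1 and 146.2 CPM with A20 siRNA. Control replicate 1 lay inside the A20 siRNA range, and the log2 fold change was -0.07 (SE 0.03, unadjusted p = 0.0127, adjusted p = 0.174, edgeR).

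IFITM3 was at 65.4, 68.3, 64.8 and 69.6 CPM with control siRNA and at 66.2, 65.7, 60.8 and 61.1 CPM with A20 siRNA. A20 siRNA replicates 1 and 2 overlapped with the controls, and the log2 fold change was again -0.07 (SE 0.03, unadjusted p = 0.0464, adjusted p = 0.302, edgeR). OAS3 was at 92.0 to 96.1 CPM in control samples and 89.8 to 93.6 CPM in A20 siRNA samples, a log2 fold change of -0.04 (SE 0.03, adjusted p = 0.418, edgeR). The log2 fold changes of IFIT1, IFIT2, IFIT3 and IFIT5 were -0.23, 0.27, 0.08 and -0.04, with adjusted p from 0.583 to 0.815 (edgeR). IFIT1 and IFIT2 had 12 to 37 counts per sample and SEs of 0.21 and 0.23, and their 95% intervals ran from -0.66 to 0.21 and from -0.21 to 0.76.

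MX1, a GTPase that traps viral nucleocapsids, was at 12.1 ± 0.837 CPM per kb in control samples and exceeded its paralog MX2 by 238.4-fold per kb over the 8 samples (95% exact binomial interval 172.0 to 340.6; MX2 had 36 counts in all). MX1 and IFIT5 did not differ beyond their spread. IFIH1, the MDA5 sensor of long double-stranded RNA, was at 1.62 ± 0.177 CPM per kb and the helicase DDX60 at 1.56 ± 0.0891 (SD, n = 4). MX1 was at 31.7 to 36.7 CPM with control siRNA and 30.8 to 33.6 CPM with A20 siRNA. The log2 fold changes of MX1, IFIH1 and DDX60 were -0.07, 0.05 and 0.03, with adjusted p of 0.469, 0.822 and 0.909 (edgeR).

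PARP9 and the ubiquitin ligase DTX3L, which act as a pair and are read in opposite directions from a shared stretch of chromosome 3, were at 8.0 ± 0.191 and 9.93 ± 0.326 CPM per kb. USP18, the protease that removes ISG15 and dampens signalling at IFNAR2, was at 2.80 ± 0.0315 CPM per kb (SD, n = 4). USP18 was at 5.16, 5.17, 5.21 and 5.29 CPM with control siRNA and at 5.80, 5.69, 5.41 and 5.59 CPM with A20 siRNA. All A20 siRNA samples lay above all controls, with a log2 fold change of 0.12 (SE 0.08, adjusted p = 0.507, edgeR); 21% of the windows of USP18 occur in other genes, among them its near copy USP41. PARP9 and DTX3L had log2 fold changes of -0.00 (95% interval -0.09 to 0.08) and 0.02 (-0.05 to 0.09).

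Of the genes of MHC class I presentation, B2M, the invariant light chain, was at 70.2 ± 2.83 CPM per kb and the heavy chain HLA-C at 67.2 ± 1.88 (SD, n = 4), which did not differ beyond their spread. Per kb of all annotated exons B2M was at 21.2 and HLA-C at 41.3 CPM per kb in control samples. HLA-C exceeded HLA-B by 55.4-fold per kb over the 8 samples (43.3 to 74.9 in single samples). The HLA-B value is uncertain, and 15% of its windows occur in other genes. Both values come from reads that mapped uniquely to the reference genome. How fully this caught the HLA-B and HLA-C transcripts of RKO cells was not tested. TAP1, 1 of the 2 chains of the peptide transporter, was at 6.22 ± 0.510 CPM per kb. Its partner TAP2 was at 0 counts in all 8 samples, and 35% of the windows of TAP2 occur in another annotated gene that was also at 0. How the authors' annotation and unique mapping treated this locus was not tested.

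B2M (chr15:44711358-44718851) was at 64.6, 68.3, 63.3 and 68.7 CPM with control siRNA and at 60.6, 63.8, 60.6 and 59.5 CPM with A20 siRNA. Only A20 siRNA replicate 2 reached into the control range, above control replicate 3. The log2 fold change was -0.11 with a 95% interval from -0.18 to -0.04 (SE 0.03, unadjusted p = 0.00279, adjusted p = 0.0888, edgeR), the smallest p of the 31 tested genes.

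HLA-C was at 99.7 to 106.7 CPM with control siRNA and 95.5 to 103.3 CPM with A20 siRNA, and its log2 fold change was -0.05 (SE 0.03, adjusted p = 0.465, edgeR). HLA-B and TAP1 gave log2 fold changes of -0.21 and -0.03 with overlapping groups and adjusted p of 0.541 and 0.820 (edgeR).

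**Figure D2:**
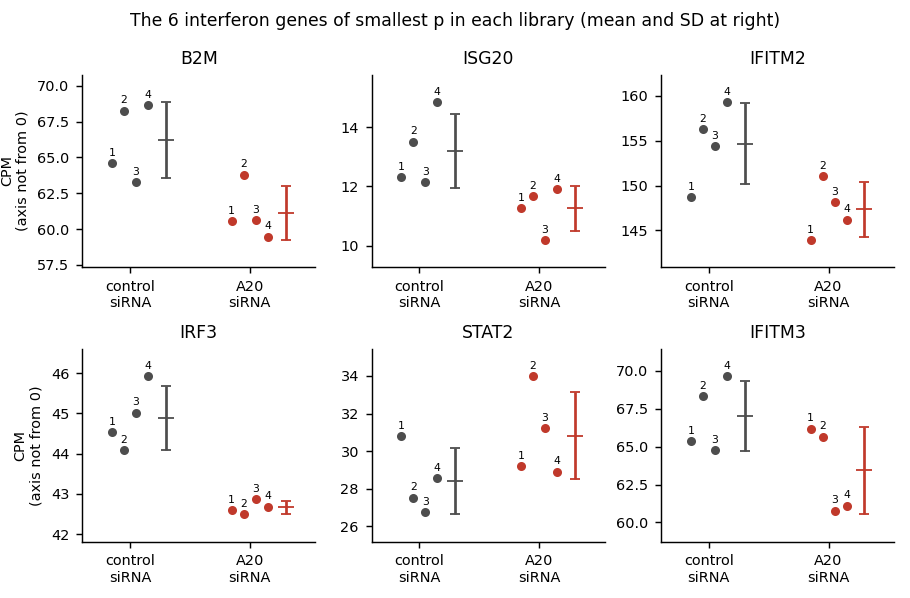
CPM of the 6 interferon genes of smallest p in each library, numbered by replicate, with the mean and SD of each group (n = 4) at its right; the axes do not start at 0. B2M, ISG20, IFITM2, IRF3 and IFITM3 were lower on average with A20 siRNA and STAT2 higher, and the groups were fully separate for ISG20 and IRF3.

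Across the 31 tested genes, 0 had an adjusted p under 0.05 with edgeR in either direction. Limma-voom also gave 0 on the same genes, and DESeq2 gave 0 of the 20 to which it assigned an adjusted p. Of all 13412 genes tested, 1.25% passed, 0.634% higher and 0.611% lower with A20 siRNA. At an unadjusted p under 0.05, edgeR gave 5 of the 31 lower, namely B2M, ISG20, IFITM2, IRF3 and IFITM3, where 7.37% of all tested genes were lower by that rule, and 1 higher, STAT2, where 8.81% of all were higher. Groups did not overlap for IFNAR1 and USP18, which were higher (3.71% of all tested genes), and for ISG20 and IRF3, which were lower (3.90% of all). In direction, 21 of the 31 genes (67.7%) had a negative log2 fold change, against 48.4% of all tested genes. Their median log2 fold change was -0.04, against 0.00 over all tested genes.

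The 95% intervals give the size of difference that these samples leave possible. Of the 31 tested genes, 25 had a 95% interval that included 0, 21 had an interval wholly within 0.25 on the log2 scale on either side (1.19-fold) and 26 within 0.5 (1.41-fold). SEs ran from 0.02 to 0.27 with a median of 0.05, and 24 genes had an SE under 0.1. The summed level of the 38 genes was 1018, 1032, 1031 and 1059 CPM with control siRNA and 1012, 1024, 1003 and 1004 CPM with A20 siRNA. Control replicate 4 was the highest and A20 siRNA replicate 2 lay within the control range.

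**Figure D3:**
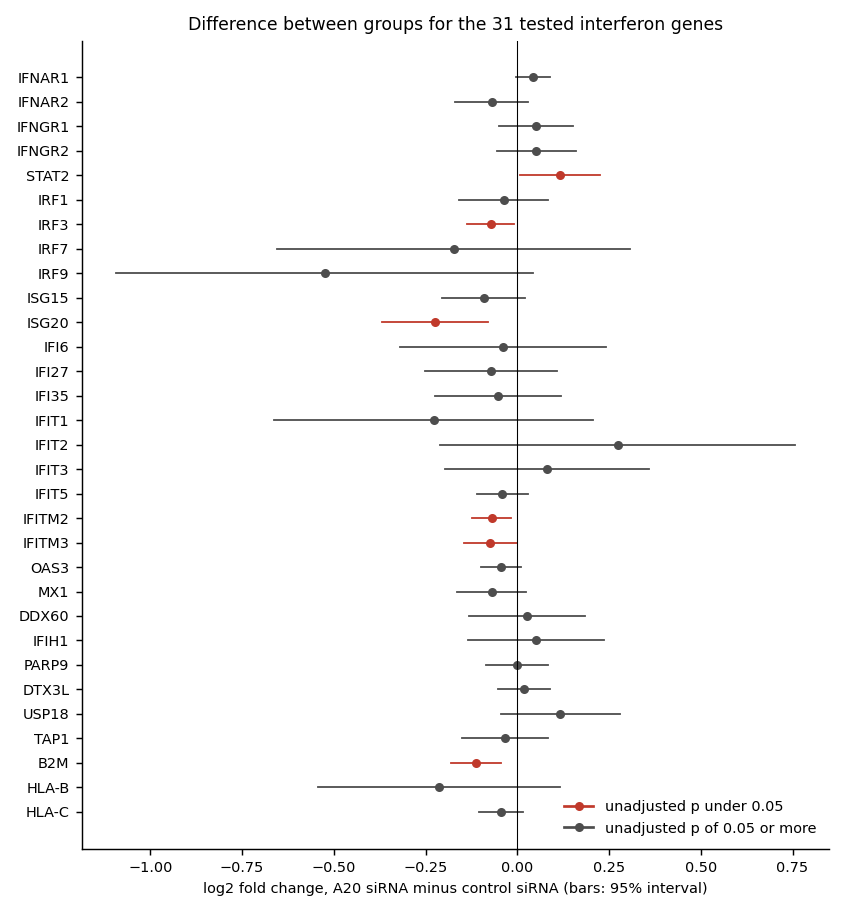
Log2 fold change of A20 siRNA minus control siRNA for the 31 tested interferon genes, with 95% intervals (4 samples in each group), in the order of their roles and with unadjusted p under 0.05 in red. Of the 31 points 21 lie below 0, and 25 of the intervals include 0; the widest belong to IRF9, IRF7, IFIT1 and IFIT2.

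Leaving out the libraries that stood apart moved calls. With both control siRNA replicate 1 and A20 siRNA replicate 2 left out, 3 of the 31 genes fell, B2M (log2 fold change -0.15, adjusted p = 0.0147), ISG20 (-0.28, adjusted p = 0.0368) and IFITM2 (-0.10, adjusted p = 0.0133, edgeR). In that fit 3.61% of 13384 tested genes fell and 4.59% rose, and none of the 31 was among those that rose. The 6 samples of that fit were fully divided by length trend, with rho of -0.20 to -0.11 in the controls and 0.07 to 0.18 in the A20 siRNA samples. That trend was taken over the length of all annotated exons, which is 3121 bases for B2M, 7184 for ISG20 and 1606 for IFITM2. Their canonical transcripts have 943, 1583 and 1006 bases. A correction for exonic length in the same 6 samples, chosen after seeing the data, left B2M (-0.14, adjusted p = 0.0212) and ISG20 (-0.29, adjusted p = 0.0295) past the threshold, with IFITM2 at -0.08 (adjusted p = 0.0579) and OAS3 at -0.10 (adjusted p = 0.0363, edgeR). With it 4.08% of 13384 genes fell and 3.21% rose, none of the 31 among the latter.

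B2M, ISG20 and IFITM2 had the same direction in each of the 18 alternative settings, and B2M passed the threshold in 7 of them, ISG20 in 6 and IFITM2 in 2. The 7 settings of B2M, which include those of ISG20 and IFITM2, called 2.05% to 8.20% of all tested genes. Every other setting called at most 1.80%. A kept direction was not particular to B2M, ISG20 and IFITM2, since only 9 of the 31 genes changed sign in any setting. All settings reuse the same samples. OAS3 passed in the length-corrected fit of 6 samples alone, and no other gene of the 31 passed in any setting.

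**Figure D4:**
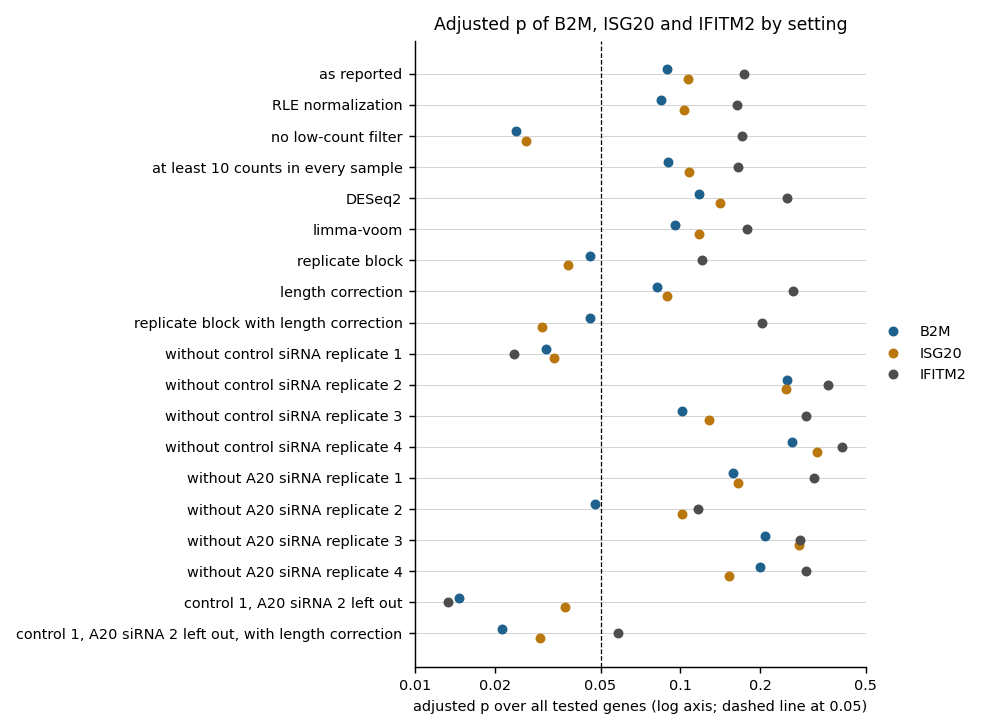
Adjusted p of B2M, ISG20 and IFITM2 over all tested genes on a log axis, as reported and under each of 18 alternative settings, with the threshold of 0.05 dashed. B2M ranges from 0.0147 to 0.264, ISG20 from 0.0261 to 0.327 and IFITM2 from 0.0133 to 0.406.

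The 118 other genes of the pathway give the surroundings of these values. Of 21 interferon ligand genes, 20 were at 0 counts in all 8 samples, among them IFNB1 and IFNG, and IFNE reached 6 counts. Of the other genes 71 could be tested. None passed at an adjusted p under 0.05 with edgeR, with limma-voom or, among the 60 given an adjusted p, with DESeq2, while at an unadjusted p under 0.05 edgeR gave 11 higher (8.81% of all tested genes) and 2 lower (7.37% of all), and the median log2 fold change was 0.01.

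The kinases and regulators next to the receptors were mostly expressed, 14 of 17 being tested. PTPN11, a phosphatase, was at 78.0 ± 1.30 CPM per kb in control samples, and the kinase JAK1 at 34.6 CPM per kb. STAT3, IRF2 and TYK2 had the smallest p, with log2 fold changes of 0.07, 0.10 and 0.06 and adjusted p of 0.164, 0.267 and 0.333 (edgeR). STAT3 was higher in all 4 A20 siRNA samples than in any control sample, as were 3.71% of all tested genes.

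Of 17 genes of nucleic acid sensing 13 were tested, with ADAR at 85.2, TBK1 at 26.2 and the kinase EIF2AK2 at 26.2 CPM per kb. MAVS, the adaptor of MDA5 on mitochondria, was at 185.7 CPM with control siRNA and 196.8 CPM with A20 siRNA (log2 fold change 0.08, adjusted p = 0.111, edgeR), and TRAF3 and EIF2AK2 gave 0.08 and 0.06. STING1, the adaptor of DNA sensing, had 4 counts in all 8 samples together.

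Among 42 other interferon-stimulated genes 27 were tested. BST2, a tether of budding virus, was at 251.7 ± 5.87 CPM per kb, above every one of the 38 genes, and IFI16 and WARS1 were at 126.6 and 72.3 CPM per kb. UBE2L6, the conjugating enzyme for ISG15, was at 39.2, 38.5, 37.5 and 42.3 CPM with control siRNA and at 33.8, 36.8, 36.3 and 35.1 CPM with A20 siRNA. The groups did not overlap, and 3.90% of all tested genes were lower by that rule. The log2 fold change of UBE2L6 was -0.15 (SE 0.04, adjusted p = 0.0679, edgeR). UBE2L6 passed the threshold in 5 of 18 alternative settings, and its adjusted p ranged over the 18 from 0.00834 to 0.240. In the 5 settings in which it passed, 2.05% to 8.20% of all tested genes passed. SAMD9L and HELZ2 gave 0.22 and 0.11 with adjusted p of 0.154 and 0.259 (edgeR).

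Of 21 other antigen presentation genes 17 were tested, and the chaperones CALR, CANX and PDIA3 were the highest at 766.4, 390.5 and 216.5 CPM per kb. ERAP2, a peptidase that trims MHC ligands, had a log2 fold change of 0.07 and CALR of -0.05, with adjusted p of 0.234 and 0.25 (edgeR).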

How the data were processed

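Poly(A) RNA of 8 RKO samples was sequenced from 1 end. The authors trimmed with Trimmomatic, mapped with STAR to GRCh38.p7 and deposited raw counts of uniquely mapping reads per gene on a GENCODE annotation; tool versions, the GENCODE release and the strand setting are not given in the sources used here. Groups come from the sample labels, as do the replicate numbers. The 38 genes and the other lists were chosen with earlier results of these data known.

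Of 57992 genes 56948 were matched by Ensembl identifier to GENCODE 44, which gave symbols, coordinates and lengths. Counts were tested with edgeR 4.0.16 in R 4.3.3: filterByExpr with a minimum count of 10, TMM, and the quasi-likelihood test of A20 siRNA against control siRNA without covariates. P-values were adjusted by Benjamini-Hochberg over all 13412 genes, with a threshold of 0.05. Each SE was the size of the log2 fold change divided by the root of its F statistic. The biological coefficient of variation was 2.73%. Total counts of 21226451 to 34194273 per sample make 3 counts 0.0877 to 0.141 CPM before TMM scaling. Intervals of ratios and floors cover counting error only. Chi-square values per degree of freedom of 1.32 to 3.71 between samples of a group showed no library deposited as a copy. Shared sequence was the share of 75-base windows of the canonical transcript that also occur in another listed gene. Promoter windows came from RefSeq (GRCh38.p14).

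All 38 genes are named, and of each other pathway list the genes passing the threshold, up to 3 of smallest p and up to 3 of highest level; some items of these lists are not reported here. IFNB1, IFNG, STING1 and MX2, outside that rule, were chosen after their values were seen. Alternatives were RLE normalization, no filter, a minimum of 10 counts throughout, DESeq2 1.42.0, limma-voom (limma 3.58.1), the replicate number as a block, a correction for exonic length (loess, span 0.5), both together, each sample left out, and control replicate 1 with A20 siRNA replicate 2 left out, this last also with the length correction, which was added after seeing the data. The pipeline was tested on simulated data.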

Additional observations from a re-analysis of the deposited data

Results flagged for a closer look

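In 7 of 64 groups of 4 samples examined, 1 sample lay far from the other 3 by Dixon's ratio, the gap to the nearest sample divided by the range of the group; chance gives about 1 in 20, which is 3.2 of 64. With control siRNA these were IFI6 in replicate 1 (1.93 CPM against 2.19 to 2.20, ratio 0.976), PARP9 in replicate 1 (25.2 against 24.0 to 24.1 CPM, ratio 0.851), OAS3 in replicate 2 (92.0 against 95.4 to 96.1 CPM, ratio 0.844), IFIH1 in replicate 3 (4.86 against 5.99 to 6.19 CPM, ratio 0.850) and HLA-B in replicate 4 (2.45 against 1.81 to 1.84 CPM, ratio 0.958). With A20 siRNA these were DDX60 in replicate 2 (8.13 against 10.0 to 10.2 CPM, ratio 0.898) and TNFAIP3 in replicate 2 (3.01 against 3.40 to 3.47 CPM, ratio 0.847). Without its outlying sample IFIH1 had a log2 fold change of -0.02 and PARP9 of 0.02, opposite in sign to the values over all samples, both of them close to 0.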

How the results depend on the processing

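Of 546 log2 fold changes recomputed for the 31 tested genes over 18 settings, 510 kept their direction and their side of the threshold, 16 came to pass it and 20, in 9 genes, changed sign; the causes were not tested. DESeq2 gave no adjusted p for 11 of the 31 genes and for TNFAIP3, which passed in the other 17 settings with log2 fold changes from -0.77 to -0.67 when 1 sample was left out. The number of the 31 genes lower with A20 siRNA was 0 as reported and 2 (B2M and ISG20) with no filter, with the replicate block and with the block and length correction together, and 0 to 3 with 1 sample left out, where it was 3 without control siRNA replicate 1 and 1 without A20 siRNA replicate 2. It was 3 without both, and 3 without both and with the length correction, which was added after seeing the data. The number higher was 0 in every setting. Of all 13529 genes tested without control siRNA replicate 1, 430 were lower, and of the 13529 tested without A20 siRNA replicate 2, 154 were lower. Over all 13412 tested genes, 85 were higher and 82 lower as reported. With no filter 28754 genes were tested, and 314 were higher and 310 lower. The replicate block gave 262 and 212. The length correction gave 91 and 150, which made 37.8% of the calls higher in place of 50.9%. The block and length correction together gave 218 and 258. The 83 higher and 122 lower of DESeq2 made 40.5% higher. With 1 sample left out the counts ran from 6 to 567 higher and from 6 to 430 lower, and without control replicate 1 and A20 siRNA replicate 2 they were 614 and 483, or 430 and 546 with the length correction as well, where 44.1% were higher.

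The replicate numbers are not stated to mark a shared batch, and the samples were not taken as paired. Deviations of same-numbered samples correlated between -0.01 and 0.08, against -0.12 to 0.05 for differently numbered samples of the 2 groups. These ranges overlap, so they do not decide whether the samples were paired. With the replicate block, adjusted p was 0.0457 for B2M and 0.0375 for ISG20 (edgeR), and it changed no other call among the 31 genes or of TNFAIP3 (log2 fold change -0.71).

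Signs changed as follows. Without control replicate 1 and A20 siRNA replicate 2, IRF7 was at 0.11, IFIT3 at -0.077 and PARP9 at 0.019. With the length correction as well, IRF7 was at 0.13, IFIT3 at -0.076 and IFNAR1, whose groups did not overlap over all samples, at -0.017. DDX60 was at -0.0119 with the length correction and at -0.0125 with that correction and the block. With 1 sample left out, IFI6 ran from -0.12 to 0.0049, IFIT3 from -0.035 to 0.17, DDX60 from -0.012 to 0.10, IFIH1 from -0.025 to 0.082, PARP9 from -0.016 to 0.016, DTX3L from -0.0082 to 0.035 and TAP1 from -0.077 to 0.013. Genes of few counts, such as IRF9, IRF7, IFIT1 and IFIT2, were limited by depth.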
